A study of Mus musculus with 21 samples.

Results

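Integrin subunits that leukocytes and their progenitors are known for, the 9 genes Itga4, Itga5, Itga6, Itgal, Itgam, Itgb1, Itgb2, Itgb3 and Itgb7, were followed through 7 fractions of C57BL/6 mouse bone marrow, isolated by flow cytometric sorting. The 9 were listed by name and not by a cut-off on their values, though with earlier results of these data known. They come out of 18217 genes that had a probe and a gene symbol (14318 of them with a probe that was tested), and each is given by its brightest probe. All 9 passed the filter on dim probes. RNA of every sample was measured on an Agilent array of 1 colour, with 3 arrays per fraction and 21 in all. The labels name no drug, cytokine or introduced mutation for any fraction.

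The labels give KLS, the most immature fraction, as lin- ckit+ sca1+. On the erythroid side follow PreMegE (lin- ckit+ sca1+ with CD150 and without CD105 and Fc gamma receptors), CFUe (the same without CD150) and Ter119 (CD71+ Ter119+). On the myeloid side follow PreGM (lin- ckit+ sca1+ without CD150, CD105 and Fc gamma receptors), GMP (with Fc gamma receptors and without CD150) and Mac1Gr1 (Mac1+ Gr1+). The labels thus write the same surface profile for CFUe and PreGM. The lineage cocktail of the 5 negative gates held B220, CD3, CD4, CD8, CD41, Mac1, Gr1 and Ter119. Nothing in the labels says that the 3 samples of a fraction came from separate animals, so the p-values measure only the spread between these samples, which may be technical.

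Integrins are membrane receptors made of an alpha and a beta chain, and the pairing of chains sets which ligand is bound. In bone marrow, alpha 4 with beta 1 (VLA-4) and alpha 5 with beta 1 (VLA-5) are known for holding progenitors to VCAM1 and fibronectin. The chain beta 2 pairs with alpha L to form LFA-1 and with alpha M to form Mac1, both known from mature leukocytes. Beta 3 pairs with alpha IIb (CD41) on platelets and with alpha V on other cells, and beta 7 pairs with alpha 4 in the gut-homing receptor. Since Mac1 was part of the sort, low Itgam and Itgb2 in the 5 lineage-negative fractions and high levels in Mac1Gr1 are a check of the gates; the Ter119 fraction was gated on neither.

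Levels are log2 of the background-corrected signal less that array's 75th percentile, so that 0 equals that percentile and 1 unit is a factor of 2. A level ranks fractions for a gene and not genes against each other. A change was called at an adjusted p under 0.05 (limma with Benjamini-Hochberg adjustment over 29538 probes) and at least 2-fold. Between 56.4% and 77.4% of spots per array were well above background, arrays of a fraction correlated at 0.977 to 0.993, and the highest correlation between fractions was 0.964. The Ter119 arrays carried their own lineage (9 of 9 erythroid markers well above background on every array), but also markers of other cells. All 12 granulocytic markers were well above background there, with a summed linear signal of 4356 to 5521 times the 75th percentile, against 4876 to 5511 in Mac1Gr1 and 5.35 to 41.3 in CFUe. The median level of the 12 was 6.75 in Ter119 and 8.37 in Mac1Gr1. The 8 B cell markers were also all detected in Ter119 (summed signal 150 to 207, against 1.30 to 3.72 in CFUe), as were all 8 T cell markers. In a sorted bulk sample, fewer cells of a type and less RNA per cell cannot be told apart. Among the lineage-negative fractions, KLS carried all 12 macrophage markers (summed signal 38.0 to 105, against 1.63 to 2.51 in PreMegE). The labels write sca1+ for PreMegE, CFUe and PreGM as for KLS, but RNA of the Sca1 gene Ly6a differed between them. It stood at 2.57 in KLS, -3.14 in PreMegE, -0.31 in PreGM and 2.10 in GMP. In CFUe it was -5.81, with 1 of 3 arrays well above background.

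**Figure D1:**
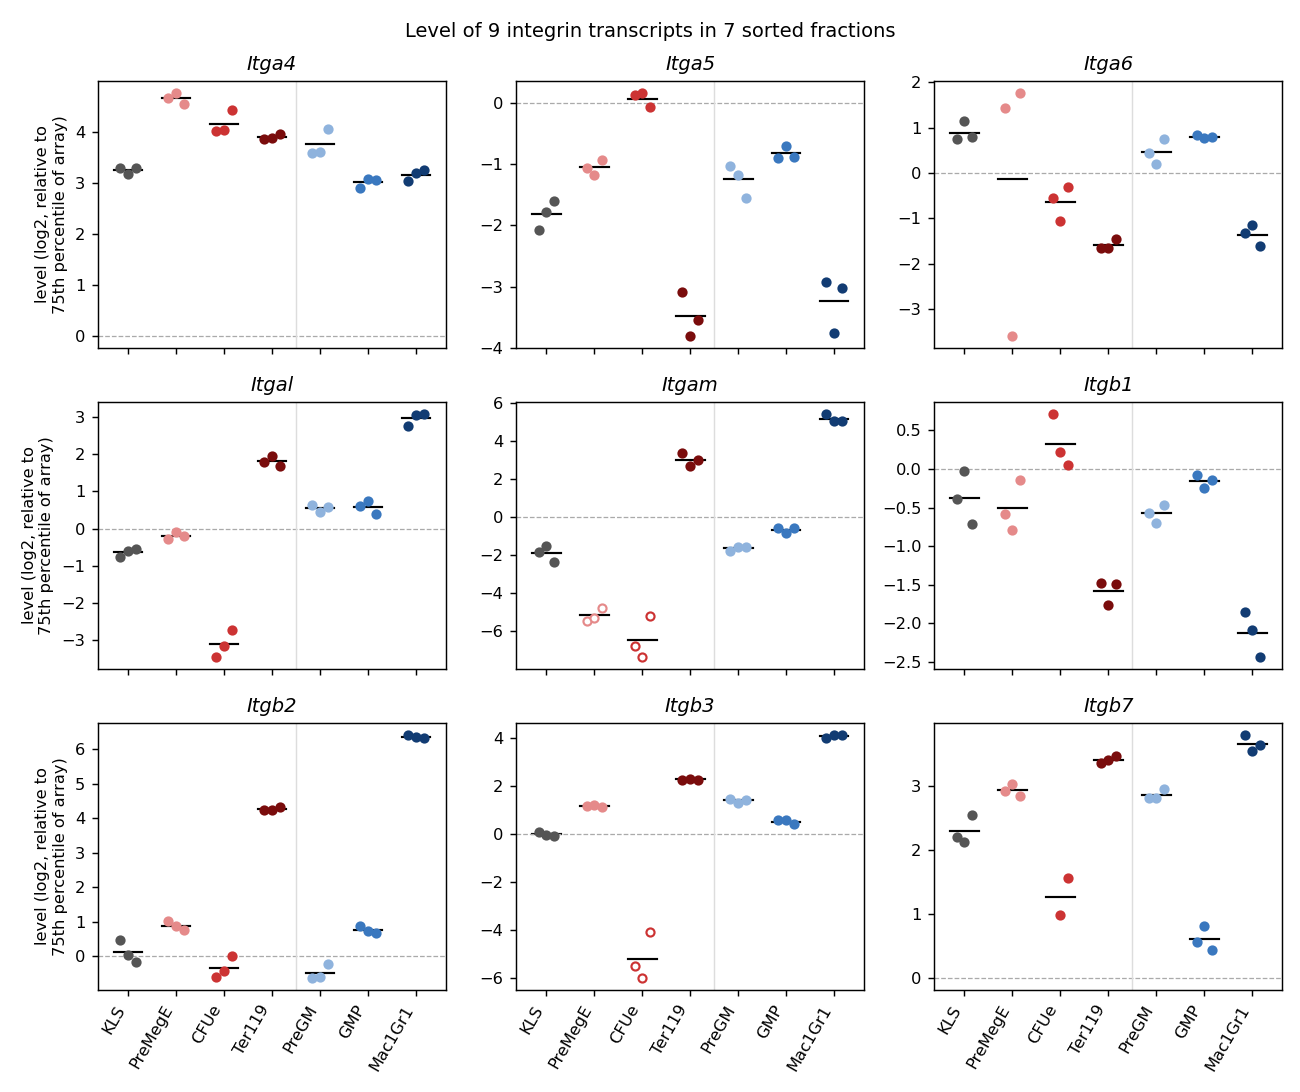
Level of each of the 9 integrin genes (log2, relative to the 75th percentile of the array) in the 7 fractions, with the erythroid side left of the grey line and the myeloid side right of it. Points are arrays, black bars are fraction means, open points mark fractions in which fewer than all measured arrays were well above background, and the dashed line is level 0; vertical scales differ between panels. Itgal, Itgam, Itgb2, Itgb3 and Itgb7 were highest in Mac1Gr1, and Itga6 in PreMegE has 1 array far below the other 2.

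The chains of the beta 2 family were highest in Mac1Gr1 and second highest in Ter119, with no overlap between the 2 fractions or with any other. Itgam, the alpha chain of Mac1, had levels of 5.41, 5.04 and 5.04 in Mac1Gr1 and of 3.37, 2.68 and 3.02 in Ter119. It was far lower in GMP (-0.56, -0.84 and -0.59), PreGM (-1.78, -1.59 and -1.57) and KLS (-1.81, -1.54 and -2.34). In PreMegE it stood at -5.43, -5.28 and -4.78, with 2 of 3 arrays well above background, and in CFUe at -6.76, -7.33 and -5.20, not well above background on any array. Itgam was thus lowest on the erythroid side before Ter119, and lower there than in any myeloid fraction. From KLS to PreMegE it fell by 3.27 ± 0.38 (SE) on the log2 scale (limma adjusted p = 4.28e-06), and from KLS to PreGM the difference of 0.25 was not called (adjusted p = 0.690). KLS carried the macrophage markers given above. Its granulocytic markers summed to 157 to 225 against 25.9 to 90.9 in PreMegE, but the 25.9 leaves out Mpo. Mpo was read on 2 PreMegE arrays, at a mean of 5.85, and stood at 7.22 in KLS. The median level of these markers was -0.72 in KLS and -1.16 in PreMegE. The part of macrophage and granulocytic markers in that fall of Itgam was not tested. Mac1Gr1 exceeded GMP by 5.83 ± 0.38 (adjusted p = 2.86e-10). Ter119 was at least 237-fold above CFUe (adjusted p = 6.42e-13), and GMP at least 18.4-fold above CFUe (adjusted p = 1.08e-09). The further fall from PreMegE to CFUe (-1.27, adjusted p = 0.0101) was called, but the arrays of the 2 fractions overlap and the background of the CFUe arrays allows no fold. That call was lost without CFUe replicate 2 (-0.82, adjusted p = 0.0720), with another background correction (normexp, -0.04) and in a fit of those 2 fractions alone (adjusted p = 0.104). The second Itgam probe followed the first over the 21 arrays (Pearson r = 0.992, a description of arrays that share fractions) and gave the same call in 9 of 9 comparisons.

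Itgb2, the beta chain that Mac1 and LFA-1 share, had levels of 6.40, 6.34 and 6.31 in Mac1Gr1 and of 4.24, 4.24 and 4.31 in Ter119. The other 5 fractions lay within a narrow band, with means from -0.48 ± 0.23 (SD, n = 3) in PreGM to 0.89 ± 0.13 in PreMegE. Itgb2 was higher in PreMegE than in PreGM, by 1.37 ± 0.17 (adjusted p = 9.37e-06), where its partner Itgam was lower (-3.52 ± 0.38, adjusted p = 2.12e-06). Between PreMegE and CFUe it dropped by 1.22 (adjusted p = 1.14e-05) and rose by 1.24 from PreGM to GMP (adjusted p = 3.37e-05). At the last steps it rose 48.0-fold from GMP to Mac1Gr1 (5.58 ± 0.17, adjusted p = 2.82e-14) and 24.3-fold from CFUe to Ter119 (4.60 ± 0.17, adjusted p = 2.20e-13). CFUe was lower than GMP by 2.15-fold (-1.10, adjusted p = 3.22e-05), a call that missed the 2-fold minimum without CFUe replicate 1 (-0.97) and with normexp (-0.96).

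Itgal, the alpha chain of LFA-1, was no gate marker. Its levels were 2.75, 3.05 and 3.06 in Mac1Gr1, 1.79, 1.95 and 1.68 in Ter119, and -3.44, -3.14 and -2.72 in CFUe, the lowest fraction. KLS (-0.75, -0.61 and -0.54) and PreMegE (-0.29, -0.09 and -0.19) lay in between, and PreGM (0.64, 0.45 and 0.59) and GMP (0.59, 0.75 and 0.40) above them. Itgal rose 2.28-fold from KLS to PreGM (1.19 ± 0.16, adjusted p = 4.14e-05; 0.58 and not called with spike-in scaling) and differed by 0.02 between GMP and PreGM (adjusted p = 0.954). On the erythroid side it fell 7.49-fold from PreMegE to CFUe (-2.91 ± 0.16, adjusted p = 3.01e-10), which left CFUe 12.8-fold below GMP (adjusted p = 4.30e-12). From CFUe to Ter119 it rose 29.9-fold (adjusted p = 4.90e-14), and from GMP to Mac1Gr1 5.19-fold (adjusted p = 3.39e-10). The rise from GMP was not called when arrays were scaled to the spike-in RNAs (0.34, adjusted p = 0.213), a scaling that moved the median change of all probes in that comparison from 0.18 to -1.86. Among the 7 fraction means of Itgal, the neighbours GMP and PreGM were the only ones that did not differ (adjusted p under 0.05, no minimum fold).

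The rises of Itgal, Itgam and Itgb2 from CFUe to Ter119 moved with the granulocytic, B cell and T cell markers described above, and the part of such cells in the rises was not tested. The myeloid comparison, Mac1Gr1 against GMP, holds no Ter119 array and gave a rise of each of the 3 genes. GMP was gated without Mac1 and Mac1Gr1 with it, so the rises of Itgam and Itgb2 there are a check of the gates. Mac1Gr1 also carried more B cell, macrophage and T cell marker signal than GMP (sums of 32.0 to 54.3 against 8.90 to 10.4, of 56.2 to 69.3 against 15.6 to 17.0 and of 6.91 to 8.75 against 0.737 to 1.24), and the part of such cells in the rises to Mac1Gr1, those of Itgb3 and Itgb7 included, was not tested. Compared directly, Ter119 was below Mac1Gr1 for Itgam (-2.14 ± 0.38, adjusted p = 9.95e-05), for Itgb2 (-2.08 ± 0.17, adjusted p = 1.34e-08) and for Itgal (-1.15 ± 0.16, adjusted p = 6.25e-06). The Itgal difference stayed under 2-fold with quantile scaling (-0.78), the slide as a block (-0.84) and the deposited series table (-0.85).

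**Figure D2:**
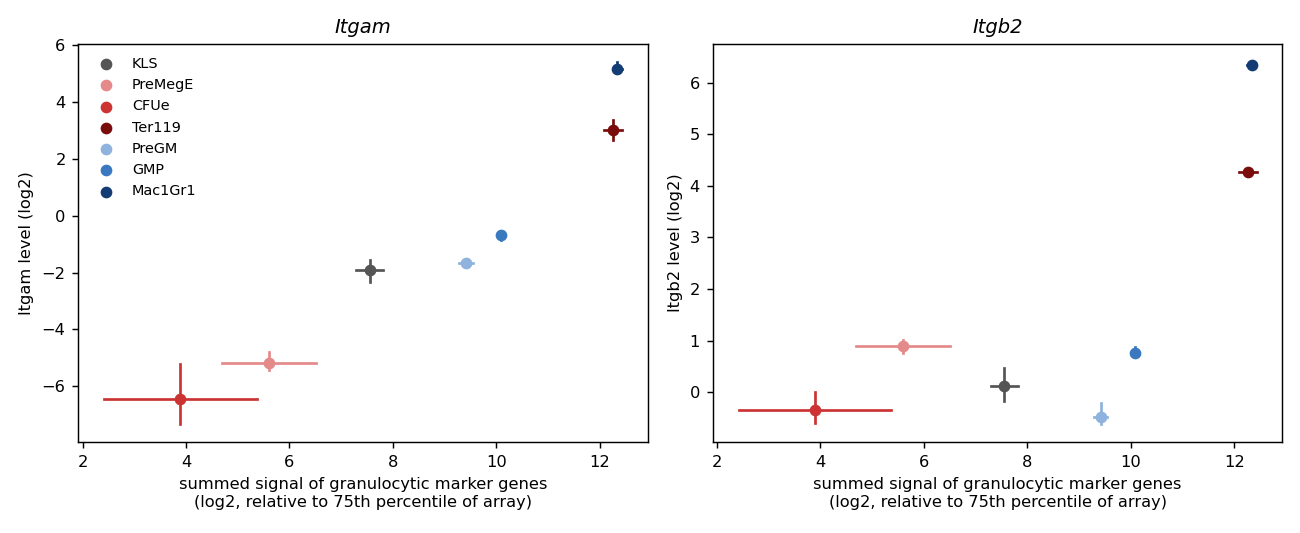
Level of Itgam (left) and Itgb2 (right), both log2 relative to the 75th percentile of the array, against the summed signal of 12 granulocytic marker genes in the 7 fractions. Points stand at the fraction mean of the integrin and the middle of the log2 range of the marker sum, and lines span the 3 arrays. The low end of the marker sum in PreMegE leaves out Mpo, which also moves that point. Ter119 and Mac1Gr1 have overlapping marker sums and stand apart in both integrins, but the median level of the 12 markers was also lower in Ter119 (6.75 against 8.37).

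Itgb3, the beta chain of the platelet fibrinogen receptor and of the vitronectin receptor, was lowest in CFUe by a wide margin, 5.20 below KLS, the next fraction (adjusted p = 1.60e-10). Its levels there were -5.52, -6.00 and -4.10, with 1 of 3 arrays well above background. They were 0.07, -0.03 and -0.06 in KLS, 1.18, 1.23 and 1.14 in PreMegE, 2.26, 2.31 and 2.27 in Ter119, 1.47, 1.30 and 1.44 in PreGM, 0.58, 0.57 and 0.42 in GMP, and 4.0, 4.13 and 4.11 in Mac1Gr1. Every fraction but CFUe was tight over its 3 arrays, and CFUe overlapped none of them. Itgb3 rose from KLS both to PreMegE (1.19 ± 0.29, adjusted p = 0.00586) and to PreGM (1.41 ± 0.29, adjusted p = 0.00227), calls that were lost with spike-in scaling (0.73 and 0.79). The step from PreMegE to CFUe changed it by -6.39 ± 0.29 (adjusted p = 5.57e-11), and it stood 7.48 higher in Ter119 than in CFUe (adjusted p = 5.16e-13). Mac1Gr1 exceeded GMP 11.8-fold (adjusted p = 6.82e-09) and Ter119 3.48-fold (adjusted p = 4.43e-05).

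The 2 partners of beta 3 ran differently from each other. Itga2b encodes the alpha IIb chain (CD41), a target of the lineage cocktail, and so bears on the gates as well. PreMegE, although gated without CD41, had the top mean of Itga2b among the 7 fractions (2.84). KLS, CFUe, PreGM and GMP, gated likewise, averaged -0.13, -2.97, 0.52 and -1.45. The means of Ter119 and Mac1Gr1 were -1.69 and -2.77. Itga2b RNA in PreMegE thus ran against the gate on CD41, and the reason was not tested. Itgav, the alpha V chain, was highest in Mac1Gr1, as Itgb3 was (-2.09), with a level of -2.49 in Ter119, and no CFUe array had it well above background. The 10 megakaryocyte and platelet markers, Itga2b among them, summed to 48.1 to 58.8 in PreMegE. They summed to 1.70 to 2.36 in Mac1Gr1 and 3.25 to 4.22 in Ter119, where Itgb3 was highest. Of the 10, 5 were well above background on every Ter119 array and 6 on every Mac1Gr1 array, Gp9 and Gp1bb among them in both. Ppbp, a chemokine of platelet granules, and Gp1ba were not well above background on any array of those 2 fractions. Ppbp was not so in CFUe, PreGM and GMP either. The rise of Itgb3 to Ter119 moved with the granulocytic and lymphoid markers given earlier, whose part was not tested.

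Itgb7, the beta chain of the alpha 4 beta 7 receptor, dropped at the second step of both sides and was higher again at the third. Levels were 2.92, 3.03 and 2.85 in PreMegE, 0.98 and 1.56 in CFUe, and 3.36, 3.41 and 3.47 in Ter119. On the myeloid side they were 2.81, 2.81 and 2.96 in PreGM, 0.56, 0.81 and 0.44 in GMP, and 3.79, 3.54 and 3.64 in Mac1Gr1, with KLS at 2.20, 2.12 and 2.54. CFUe replicate 1 was left out of the fit because the scanner software had flagged its spot as non-uniform; that spot read 0.36. The fall was 3.17-fold to CFUe (adjusted p = 6.73e-07) and 4.79-fold to GMP (-2.26 ± 0.15, adjusted p = 3.03e-08). The rise was 4.41-fold to Ter119 (adjusted p = 7.61e-09) and 8.32-fold to Mac1Gr1 (3.06 ± 0.15, adjusted p = 2.22e-11). Mac1Gr1 and Ter119 did not differ for Itgb7 beyond the test (adjusted p = 0.163). The rise to Ter119 stayed under 2-fold with spike-in scaling (0.90), and it too moved with the markers of other cells named above, whose part was not tested.

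Itga4, the alpha chain that pairs with beta 1 or beta 7, varied least of the 9, with 1.64 between its highest and lowest fraction means. It was highest in PreMegE (4.66, 4.75 and 4.53) and lowest in GMP (2.90, 3.07 and 3.06). Between them stood CFUe (4.01, 4.03 and 4.43), Ter119 (3.85, 3.87 and 3.95), PreGM (3.58, 3.60 and 4.06), KLS (3.28, 3.17 and 3.28) and Mac1Gr1 (3.02, 3.19 and 3.24). Of these neighbours in order, PreMegE differed from CFUe (adjusted p = 0.00609) and PreGM from KLS (adjusted p = 0.0124), and the other 4 pairs did not pass. Itga4 rose 2.65-fold from KLS to PreMegE (1.41 ± 0.14, adjusted p = 5.62e-07), and CFUe was 2.21-fold above GMP (1.14 ± 0.14, adjusted p = 2.07e-06). The first rise came to 0.94 with spike-in scaling. The second turned to -0.23 with spike-in scaling and fell short of 2-fold with quantile scaling (0.93) and the series table (0.90). The difference between Mac1Gr1 and GMP, 0.14 and not called, turned to -1.89 with spike-in scaling. The other 2 Itga4 probes followed the first at Pearson r = 0.925 and 0.888 over the arrays, and the latter called Ter119 above Mac1Gr1 (1.18), where the brightest probe gave 0.74.

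Itga5 and Itgb1, the chains of the fibronectin receptor VLA-5, moved against the beta 2 chains at the last steps. Itga5 had levels of 0.13, 0.17 and -0.06 in CFUe, its highest fraction, and of -3.09, -3.81 and -3.54 in Ter119, a fall of 11.8-fold (-3.56 ± 0.22, adjusted p = 1.17e-10). It stood at -0.89, -0.69 and -0.88 in GMP and at -2.92, -3.76 and -3.02 in Mac1Gr1, a fall of 5.32-fold (-2.41 ± 0.22, adjusted p = 1.90e-08). The terminal fractions overlapped each other and no other fraction. Before that, Itga5 rose 2.19-fold from PreMegE (-1.06, -1.17 and -0.93) to CFUe (adjusted p = 3.16e-04), a rise under 2-fold with normexp (0.93) and with spike-in scaling (0.61). KLS (-1.82 ± 0.23, SD, n = 3) and PreGM (-1.25 ± 0.27) did not differ (adjusted p = 0.0626).

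Itgb1, the beta chain of VLA-4, VLA-5 and the laminin receptor alpha 6 beta 1, was highest in CFUe (0.32 ± 0.34, SD, n = 3) and lowest in Mac1Gr1 (-2.13 ± 0.29) and Ter119 (-1.58 ± 0.16). The other 4 fractions had means between -0.57 and -0.15. It fell 3.74-fold from CFUe to Ter119 (-1.90 ± 0.21, adjusted p = 2.69e-07) and 3.92-fold from GMP to Mac1Gr1 (-1.97 ± 0.21, adjusted p = 1.71e-07), and no other comparison of Itgb1 was called. The second Itgb1 probe gave a fall to Ter119 just under 2-fold (-0.98) and the same sign in 5 of 9 comparisons, so smaller differences of this gene depend on the probe.

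Itga6, the alpha chain of laminin receptors, has a single spot per array, and 1 of them governs its results. PreMegE replicate 2 read -3.59, well above background and not flagged, where replicates 1 and 3 read 1.42 and 1.76. It lies 5.18 below the mean of those 2. The other fractions were tight, at 0.74, 1.14 and 0.79 in KLS, 0.84, 0.76 and 0.79 in GMP, 0.45, 0.19 and 0.74 in PreGM, -0.55, -1.06 and -0.31 in CFUe, -1.67, -1.66 and -1.46 in Ter119, and -1.33, -1.16 and -1.61 in Mac1Gr1. With all arrays, the fall of 4.47-fold from GMP to Mac1Gr1 was called (-2.16 ± 0.87, adjusted p = 0.0337), and it was lost when any of the 6 GMP or Mac1Gr1 arrays was left out (adjusted p = 0.0536 to 0.0812) or with a block for the slide (adjusted p = 0.0748). Without PreMegE replicate 2 the same fall had an adjusted p of 3.43e-08. Also without it, Itga6 was lower in CFUe than in PreMegE (-2.23, adjusted p = 5.84e-07), and CFUe was lower than GMP (-1.44, adjusted p = 1.09e-05). PreMegE then stood above PreGM by 1.13 (adjusted p = 0.00108), against -0.60 with all arrays, where the difference was not called.

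**Figure D3:**
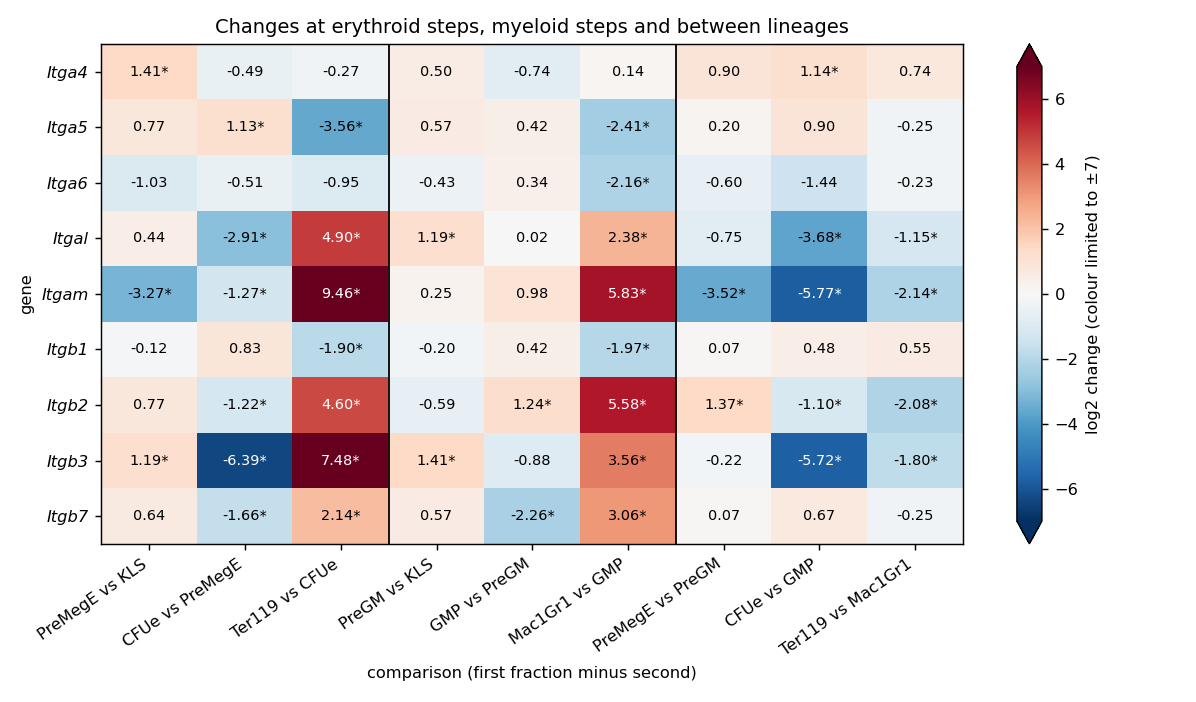
Log2 change of the 9 integrin genes (rows) in 9 comparisons (columns, first fraction minus second): 3 erythroid steps, 3 myeloid steps and 3 comparisons between the lineages, separated by black lines. Colour and number give the change and an asterisk marks a call (limma adjusted p under 0.05 and at least 2-fold); changes against CFUe for Itgam are fitted values on a fraction at background. At the last step of either side 5 genes rose, and Itga5 and Itgb1 fell.

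Read across the 9 genes, most of the change lay in the second erythroid step and in the third step of both sides, as for probes at large. From KLS to PreMegE, 3 of 9 were called (Itga4 and Itgb3 higher, Itgam lower), where 12.4% of all probes were, 3.55% higher and 8.86% lower. From KLS to PreGM, 2 were called (Itgal and Itgb3, both higher), against 8.64% of all probes, 2.11% higher and 6.53% lower. The second step called 6 on the erythroid side, 5 of them lower, against 24.7% of all probes (9.96% higher and 14.7% lower). On the myeloid side it called 2, Itgb2 higher and Itgb7 lower, against 10.4% (4.01% higher and 6.36% lower). The third step called 7 from CFUe to Ter119 (5 higher, 2 lower), against 57.2% of all probes, and 8 from GMP to Mac1Gr1 (5 higher, 3 lower), against 56.7%. The 5 that rose were Itgal, Itgam, Itgb2, Itgb3 and Itgb7 in both steps. Of these, Itgam and Itgb2 encode Mac1, which set GMP and Mac1Gr1 apart in the sort. Called rises took 29.2% and 29.1% of all probes, and called falls 28.0% and 27.6%. The median change of the 9 was 2.14 and 2.38 in these steps, beside 0.05 and 0.18 for all probes tested.

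Between the lineages, 2 of 9 genes differed at the first stage (PreMegE against PreGM: Itgb2 higher and Itgam lower), where 12.0% of all probes did, 5.81% higher and 6.23% lower. Itga4 was 0.90 higher in PreMegE (adjusted p = 8.54e-05), under the 2-fold minimum. It was called with quantile scaling (1.06), spike-in scaling (1.06), the series table (1.02) and without PreGM replicate 3 (1.06). At the second stage 5 differed, with CFUe above GMP for Itga4 and below it for Itgal, Itgam, Itgb2 and Itgb3 (26.3% of all probes, 12.1% higher and 14.2% lower; with the slide as a block Itga5 was also called, at 1.12 with an adjusted p of 0.0194). At the third stage 4 differed, all lower in Ter119 than in Mac1Gr1 (Itgal, Itgam, Itgb2 and Itgb3; 41.9% of all probes, 22.0% higher and 19.9% lower). With quantile scaling and with the series table Itga4 was also called there, higher in Ter119 (1.09 and 1.02), while Itgal was not called. These comparisons share fractions with the steps and add no independent samples. Among all 7 fractions, the moderated F-test passed for 8 of 9 genes, where 94.7% of all probes passed; Itga6 did not (adjusted p = 0.0561). All 9 passed when any 1 of the 3 PreMegE arrays was left out, and with quantile scaling, spike-in scaling, normexp and the series table.

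Whether a step differed between the sides was tested directly. At the second step, 4 of the 9 differed (34.2% of all probes): Itgal, Itgam, Itgb2 and Itgb3 each changed more negatively from PreMegE to CFUe than from PreGM to GMP. For Itgb3 the fitted changes were -6.39 and -0.88, the first of them against CFUe arrays of which 1 of 3 was well above background. Other settings added genes at this step. Itga6 differed without PreMegE replicate 2 (-2.57, adjusted p = 6.28e-06), and Itgb1 by its second probe (0.93, adjusted p = 0.00701). Itga5 passed with normexp (0.59) and with the compared fractions alone (0.70). At the third step 6 differed (55.0% of all probes). Itgal, Itgam and Itgb3 rose more from CFUe to Ter119 than from GMP to Mac1Gr1, from a lower level in CFUe, while Itgb2 and Itgb7 rose less and Itga5 fell further. Itga6 also differed there without PreMegE replicate 2 (1.21, adjusted p = 0.00140) and with the compared fractions alone (adjusted p = 0.00317). For Itgb1 the falls of the 2 sides differed by 0.07 ± 0.30 (adjusted p = 0.860), which does not show that they were equal.

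**Figure D4:**
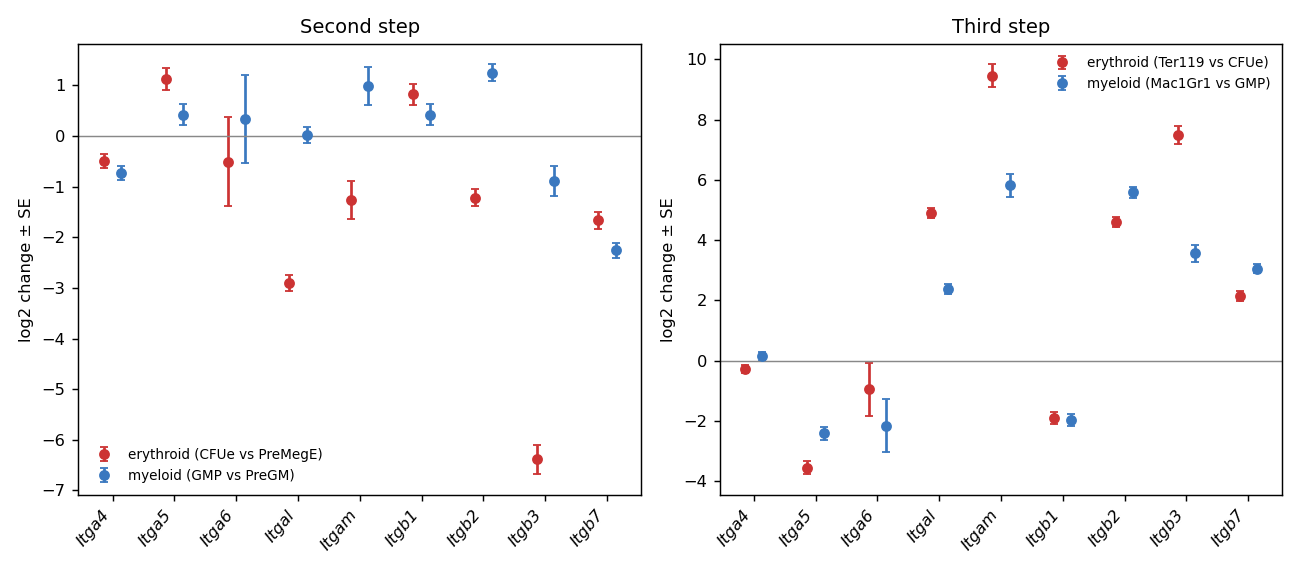
Change (log2, mean difference ± SE from the limma fit) of each integrin gene at the second step (left) and the third step (right), erythroid in red and myeloid in blue. At the second step Itgb3 and Itgal fell on the erythroid side with small changes on the myeloid side; at the third step the fitted changes of both sides had the same sign for the 8 genes other than Itga4.

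The upstream sequences of genes that moved in opposite directions at the last steps are shown here for Itgam and Itgb7, which rose, and for Itga5 and Itgb1, which fell. The promoter table of RefSeq (GRCm38.p6) had an entry for 5 of the 9 genes, these 4 and Itga4. Each line is the 250 bases before the annotated start, on the strand of the gene. Capitals mark GAGGAA on either strand (TTCCTC when read on the other), the core of the PU box that the ETS factor PU.1 is known to bind, and the positions that follow count the base just before the start as -1.
Itgam, chr7:128062390-128062639, plus strand: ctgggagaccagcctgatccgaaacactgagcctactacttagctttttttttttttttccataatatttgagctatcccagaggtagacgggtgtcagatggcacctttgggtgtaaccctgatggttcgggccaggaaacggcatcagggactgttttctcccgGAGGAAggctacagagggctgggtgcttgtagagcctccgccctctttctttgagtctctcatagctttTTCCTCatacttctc
Itgb7, chr15:102231936-102232185, minus strand: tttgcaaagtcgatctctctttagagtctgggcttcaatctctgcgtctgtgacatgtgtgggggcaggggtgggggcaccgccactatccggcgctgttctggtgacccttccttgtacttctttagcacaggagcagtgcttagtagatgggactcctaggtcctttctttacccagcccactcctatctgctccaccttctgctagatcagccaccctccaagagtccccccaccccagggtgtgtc
Itga5, chr15:103366792-103367041, minus strand: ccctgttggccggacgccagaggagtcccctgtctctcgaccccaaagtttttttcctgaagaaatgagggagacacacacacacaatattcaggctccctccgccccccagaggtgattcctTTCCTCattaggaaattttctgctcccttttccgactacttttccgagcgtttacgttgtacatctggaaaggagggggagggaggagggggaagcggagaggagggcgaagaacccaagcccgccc
Itgb1, chr8:128685404-128685653, plus strand: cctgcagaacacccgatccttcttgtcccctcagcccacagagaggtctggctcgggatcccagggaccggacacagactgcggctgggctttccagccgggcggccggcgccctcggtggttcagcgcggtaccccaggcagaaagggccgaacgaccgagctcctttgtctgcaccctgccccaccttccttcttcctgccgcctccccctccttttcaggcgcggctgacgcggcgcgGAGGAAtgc
Itgam holds the letters at -84 and, on the other strand, at -15. Itga5 holds them at -127 on the other strand and Itgb1 at -9, while Itgb7 and Itga4 do not hold them. Of the 32851 promoters listed there, 23.3% hold them in this window, and among the 4 printed they occur in genes that rose and in genes that fell.

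Over the 21 arrays, the 9 genes fell into strands that a correlation describes; the points share fractions, so no p is given. Itgal followed Itgb3 (Pearson r = 0.958, n = 21) and Itgam (0.913), Itga5 followed Itgb1 (0.898), and Itgb1 ran against Itgb2 (-0.901). Itga4 followed none of the others closely (between -0.58 and 0.27). Of 14131 other genes searched, those close in pattern to Itgam included Cxcr4 (0.988), the receptor of the chemokine CXCL12, and Ccl6 (0.986), a chemokine. Those close to Itgal included Cotl1 (0.989), an actin-binding protein, and Cnn2 (0.979). Closest to Itgb2 were Lct (0.988), Gsn (0.987), an actin-severing protein, and Rit1 (0.987). Itgb3 was closest to Laptm5 (0.978), Pold4 (0.977) and Mical1 (0.974), and Itgb1 to Cyp20a1 (0.981), Nup205 (0.979) and Cct6a (0.979). Itga5 was closest to Morf4l2, Gemin5 and Tex10 (0.976 to 0.980), Itga4 to Fbxl13, Ptpn14 and Trib2 (0.920 to 0.946), Itga6 to Mlkl, Tmem67 and C8g (0.898 to 0.905), and Itgb7 to Akap13, Ash1l and Myo1c (0.914 to 0.945, n = 20).

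Of 18 further integrin subunits listed, 13 were tested (no probe matched Itga10, Itgad and Itgb8, and Itga7 and Itga11 were too dim). From CFUe to Ter119, 9 of the 13 were called higher and 0 lower (69.2% called, against 57.2% of all probes). Itgb2l, a beta chain related to beta 2, rose by 10.63 (adjusted p = 3.09e-13; CFUe well above background on 1 of 3 arrays) and Itgax, which pairs with beta 2, at least 86.5-fold. From GMP to Mac1Gr1, 4 were higher and 1 lower, led by the same 2 genes (Itgb2l 9.96, Itgax 6.66). From PreMegE to CFUe, 6 of 13 were lower and 0 higher, among them Itga2b (-5.82, adjusted p = 3.38e-11), Itgb4 (-2.64) and Itga9 (a fitted -2.46, with 1 of 3 CFUe arrays well above background). The first erythroid step had 1 higher (Itga2b, 2.97) and 3 lower, among them Itgb5 (-6.37). KLS, from which Itgb5 fell, also carried the macrophage markers, whose part was not tested. Itgb5 stood at 2.39 in KLS, 1.21 in PreGM and 0.13 in GMP. The median level of the macrophage markers was 1.97, -3.58 and -1.76 in these fractions. The first myeloid step had 0 higher and 1 lower (Itga9, -1.55), the second 1 and 3. Between lineages the counts of higher and lower were 2 and 3, 0 and 5, and 3 and 2 at the 3 stages. The share of the 13 called, either way, was 30.8%, 46.2% and 69.2% at the erythroid steps (all probes 12.4%, 24.7% and 57.2%), 7.69%, 30.8% and 38.5% at the myeloid steps (8.64%, 10.4% and 56.7%), and 38.5% at each stage between lineages (12.0%, 26.3% and 41.9%). It was thus below that of all probes from KLS to PreGM, from GMP to Mac1Gr1 and for Ter119 against Mac1Gr1.

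Of 19 genes for integrin ligands, 15 were tested. Vcam1, the ligand of VLA-4, stood at 3.46 in KLS and fell by 7.12 to PreGM (adjusted p = 1.07e-08) and by 6.31 to PreMegE (adjusted p = 8.28e-09). It is also on the macrophage list, whose summed signal in KLS is given above. Vcam1 then rose by 6.21 from PreGM to GMP (adjusted p = 2.15e-08), and it was at least 169-fold lower in CFUe than in GMP. Of the 12 macrophage markers, Vcam1 among them, 11 were well above background on every GMP array and 9 on every PreGM array. Their median level was -1.76 in GMP and -3.58 in PreGM, and the part of macrophages in the rise of Vcam1 was not tested. Icam4, a ligand of leukocyte and platelet integrins on red cells, rose by 3.17 from KLS to PreMegE (adjusted p = 7.24e-08) and was 6.09 higher in Ter119 than in Mac1Gr1 (adjusted p = 5.82e-12). The ligands called higher and lower were 1 and 5, 0 and 7, and 9 and 0 of 15 at the 3 erythroid steps, and 2 and 4, 2 and 4, and 4 and 4 at the myeloid steps. Between the lineages they were 1 and 4, 2 and 5, and 5 and 4. Called either way were 40%, 46.7% and 60% of them at the erythroid steps, 40%, 40% and 53.3% at the myeloid steps, and 33.3%, 46.7% and 60% between lineages. Beside the shares of all probes given for the other subunits, the last steps lay near that level (60% against 57.2%, 53.3% against 56.7%).

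The list of activation and adaptor genes, which link integrin tails to actin and to kinases, had 29 of 31 tested. From GMP to Mac1Gr1, 18 were called higher and 0 lower (62.1% called, 29.1% of all probes higher), with a median change of 1.99. Among those of largest change were Fgr (9.05), a Src-family kinase that acts downstream of beta 2 integrins, and Fyb (5.87), an adaptor of inside-out signalling. Ter119 was below Mac1Gr1 for 21 of the 29 (19.9% of all probes) and above for 3 (22.0%). The 3 were Tln2 (4.0), Parvb (2.88) and Skap1 (2.51, a T cell adaptor). From CFUe to Ter119, 14 were higher and 1 lower, beside 29.2% and 28.0% of all probes. From PreMegE to CFUe, 2 were higher and 9 lower, beside 9.96% and 14.7%. Among the 9 were Zyx (-3.80), Syk (-3.19) and Rasgrp2 (a fitted -4.74, with 1 of 3 CFUe arrays well above background). CFUe against GMP gave 4 and 12, beside 12.1% and 14.2%. Fermt3, the kindlin of blood cells, rose by 1.23 from KLS to PreMegE (adjusted p = 6.48e-05), where 3 were higher and 3 lower. The counts were 0 and 1 from KLS to PreGM, 2 and 1 from PreGM to GMP, and 3 and 1 for PreMegE against PreGM. Called either way were 20.7%, 37.9% and 51.7% of the 29 at the erythroid steps (all probes 12.4%, 24.7% and 57.2%). At the myeloid steps it was 3.45%, 10.3% and 62.1% (8.64%, 10.4% and 56.7%). Between lineages it was 13.8%, 55.2% and 82.8% (12.0%, 26.3% and 41.9%). The share was at or below that of all probes from CFUe to Ter119 (57.2%), from KLS to PreGM (8.64%) and from PreGM to GMP (10.4%). These lists are described by counts alone and were not tested as sets.

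**Figure D5:**
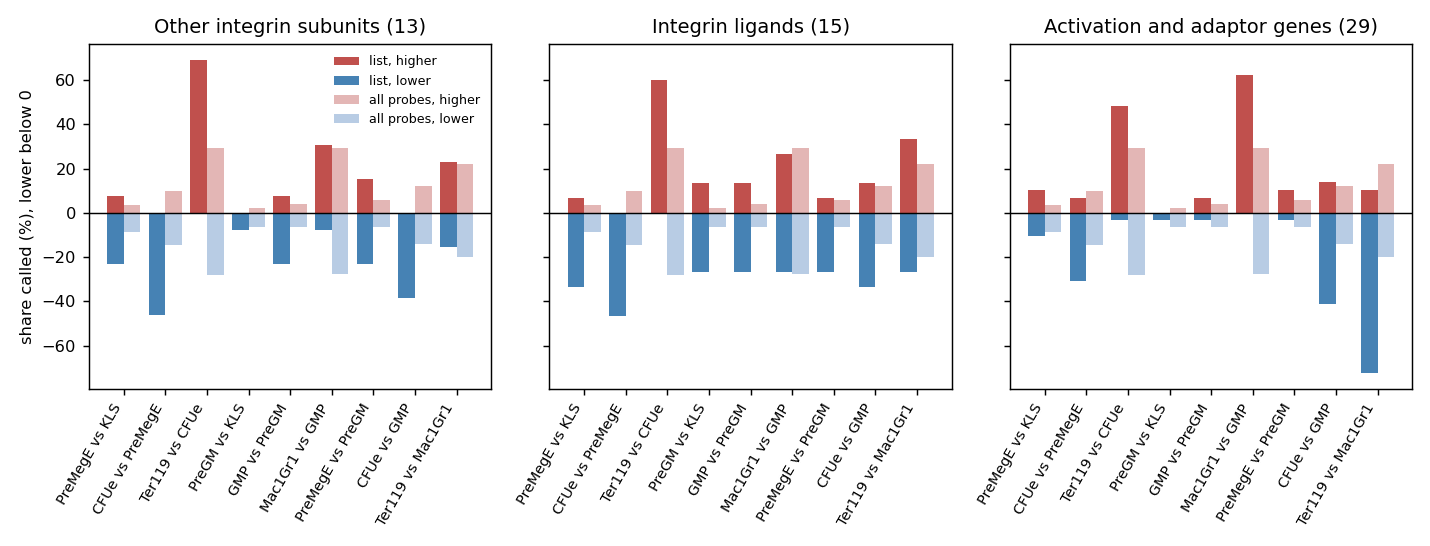
Share of tested genes called higher (above 0) and lower (below 0) in 9 comparisons for 3 lists, 13 other integrin subunits, 15 ligands and 29 activation and adaptor genes, beside the share of all 29538 probes tested (pale bars). The largest one-sided shares are the lower adaptors in Ter119 against Mac1Gr1 (21 of 29) and the higher subunits in Ter119 against CFUe (9 of 13). Of all probes, 19.9% and 29.2% were called in those directions.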

How the data were processed

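Expression was measured in 7 sorted fractions with 3 arrays each; groups and replicate numbers came from the labels. The deposited scanner files hold spot intensity on a linear scale, which the authors background-corrected with Agilent Feature Extraction 10.7.1.1. The deposited series table holds log2 values normalized by the authors and served as an alternative; its column medians were 6.15 to 6.23, and its normalization is not given in the sources used here. Levels are log2 intensity minus the 75th percentile of the array over 43379 non-control spots. Between 80 and 283 flagged spots per array were left out, none was saturated, and spots of a probe were averaged (41174 probes). A probe was tested where every array of at least 1 fraction had it well above background (29538 probes). Symbols came from RefSeq accessions in a GRCm38.p6 table, used for names (64.8% of probes); the array annotation names mm9.

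A two-sided limma fit (version 3.58.1, R 4.3.3; lmFit, eBayes) with a mean per fraction was used, with Benjamini-Hochberg adjustment. The F-test and the differences between steps needed an adjusted p under 0.05 alone. A fold against a fraction with no array well above background is a bound, set by the dimmest probe that was well above background. The number of arrays limits the precision. On simulated data for CFUe vs KLS (29266 probes), 179 of 200 probes changed by 2 on the log2 scale and 9 unchanged probes were called. Figures used matplotlib 3.10.9 with pandas 2.3.3 in Python 3.11.15.

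The genes are named by a rule: all 9 listed integrins, the 3 genes most correlated with each, and, per list and comparison, the 3 called genes of largest change; some genes that meet it are not reported here. The integrins and the gene and marker lists were chosen with earlier results of these data known. Alternatives were quantile and spike-in scaling (7 of 10 sequences), normexp, no filter, slide and replicate blocks, the series table, only the compared fractions, another probe, no minimum fold and each array left out. Keeping flagged spots was added after seeing the data.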

Additional observations from a re-analysis of the deposited data

Results flagged for a closer look

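Each of these integrins differed between the erythroid and the myeloid side in the size of the same step, by a direct test (limma, adjusted p under 0.05). Values are the erythroid change minus the myeloid change on the log2 scale, with SE, over 3 arrays per fraction. At the second step they were -2.92 ± 0.22 for Itgal (adjusted p = 4.14e-08), -2.25 ± 0.54 for Itgam (adjusted p = 0.00358), -2.47 ± 0.24 for Itgb2 (adjusted p = 5.86e-07) and -5.51 ± 0.42 for Itgb3 (adjusted p = 4.09e-08). The CFUe arrays in the Itgam value were not well above background, and 1 of 3 was for Itgb3.

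At the third step the differences were 2.53 ± 0.22 for Itgal (adjusted p = 6.72e-08), 3.63 ± 0.54 for Itgam (adjusted p = 2.32e-05) and 3.92 ± 0.42 for Itgb3 (adjusted p = 6.10e-07). They were -1.15 ± 0.31 for Itga5 (adjusted p = 0.00431), -0.98 ± 0.24 for Itgb2 (adjusted p = 0.00210) and -0.91 ± 0.23 for Itgb7 (adjusted p = 0.00291). The Itgam difference at this step did not pass with normexp (0.46, adjusted p = 0.131), and the Itgb2 difference did not with the slide as a block (-0.51) or spike-in scaling (-0.33). The Itgb7 difference was lost with quantile scaling (-0.38), the series table (-0.13), spike-in scaling (-0.13) and the flagged CFUe spot kept (-0.61). The Itga5 difference was lost with spike-in scaling (-0.49). The values of the third step all rest on the Ter119 arrays, which carried granulocytic and B cell markers; their part in the differences was not tested.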

How the results depend on the processing

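Scaling to the spike-in RNAs was the setting that changed the most calls, with median changes of all probes from -1.86 (Mac1Gr1 vs GMP) to 0.99 (GMP vs PreGM). Fraction levels also depended on other settings. Of 63 levels, 40 counted as moved with normexp, and 18 each with quantile scaling and with the series table. None moved with flagged spots kept, and spike-in scaling was not among the settings compared for levels. With spike-in scaling, 1 integrin was called from KLS to PreMegE, 1 from KLS to PreGM (Itgb2, -1.21, in place of Itgal and Itgb3) and 6 from PreGM to GMP, and 3 differed between lineages at the third step. Values that were called under the main or the spike-in scaling and changed sign with the latter were Itga4 in Mac1Gr1 vs GMP (-1.89) and in CFUe vs GMP (-0.23), and the difference of the second step between lineages for Itga4 (-1.29) and Itgb7 (-1.07). A further 14 values, called under neither, also changed sign, among them Itgb1 (-0.90), Itga5 (-0.48) and Itgb7 (-0.85) in CFUe vs GMP. Without a minimum fold, 7 were called from KLS to PreMegE, 5 from KLS to PreGM, 4 from PreGM to GMP and 4 for PreMegE vs PreGM. Leaving out PreMegE replicate 2 turned Itga6 in PreMegE vs PreGM to 1.13 (range over single arrays -1.54 to 1.13). Leaving out each array in turn gave 4 to 6 calls for CFUe vs GMP, 5 to 7 for CFUe vs PreMegE, 7 to 8 for Mac1Gr1 vs GMP, 2 to 3 for PreMegE vs PreGM, 8 to 9 for the F-test, 4 to 5 at the second step between lineages and 6 to 7 at the third; counts of the other 5 comparisons stayed. Of 99 values for a gene and comparison, 13 had their call changed by 1 array. The causes were not tested.

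The replicate block changed none of the 99 calls (3, 6, 7, 2, 2 and 8 at the 6 steps). Deviations of arrays of one number had r from -0.43 to 0.37 (median 0.0023, against 0.0072 for other numbers), and 10 of 21 arrays correlated best with their own number. The numbers were not read as pairs, though these values cannot exclude a pairing. Deviations of arrays on 1 slide had a median r of 0.117, against 0.00070 across slides. In the 4 comparisons whose fractions shared a slide, 16 of 17 called differences could be read within a slide. Itgb7 in Ter119 vs CFUe could not. This gave 18 readings of a gene on 2 arrays of a slide, with several genes read on the same arrays. All 18 had the sign of the fit, of which these arrays are a part. The other 5 comparisons, Mac1Gr1 vs GMP among them, have no such value. Levels near background, Itgam and Itgb3 in CFUe, limit what folds can be given.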
